A study of Homo sapiens with 18 samples.

Results

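The 51 genes described here are interferon-stimulated genes, together with the STAT and IRF transcription factors and the sensors of foreign RNA and DNA that feed into them. They were taken by symbol from a list of such genes, and all 51 were found among the 60642 gene symbols counted in every library. The list was chosen with earlier results of these data known, so contrasts of the members with all genes are descriptive. Genes of the MHC were not on the list. The RNA was sequenced from MDA-MB-231 cells, an established human line of triple-negative breast cancer, in a study of PRMT5 and HP1γ as coregulators of the glucocorticoid receptor (GR). Cells received 1 of 3 SMART-pool siRNAs: siNS (a non-specific control), siHP1γ (against CBX3, the gene of HP1γ) or siPRMT5. Each was combined with 8 h of 100 nM dexamethasone (Dex), a synthetic glucocorticoid, or of the vehicle ethanol (Eth). This gave 6 conditions (siNS Eth, siNS Dex, siHP1γ Eth, siHP1γ Dex, siPRMT5 Eth and siPRMT5 Dex) with 3 replicates each, 18 libraries in all. Each target was depleted with 1 pool, and no untransfected cells were sequenced, so the loss of a protein and an effect of its siRNA sequences cannot be told apart.

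Interferons are secreted by cells that detect viral nucleic acids. Receptors and JAK kinases pass the signal to STAT and IRF factors, which bind short promoter elements (ISRE and GAS) and switch on a broad set of antiviral genes. The sensors are themselves products of these genes: IFIH1 and DHX58 bind double-stranded RNA, and IFIH1 acts through the mitochondrial adapter MAVS. CGAS detects DNA, and the OAS enzymes make a signalling oligonucleotide when they bind double-stranded RNA. PRMT5 is an enzyme that methylates arginines of histones and splicing proteins, and HP1γ is a chromatin protein that binds methylated histone H3. Glucocorticoids are used in medicine to restrain inflammation.

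The libraries held 8682992 to 12472381 gene counts each, and levels are given as depth-scaled counts (CPM) after TMM normalization, which compare a gene between libraries but not genes with each other. The siRNAs lowered their targets: PRMT5 mRNA in siPRMT5 cells was at 2.96% of the siNS level with Eth and 4.41% with Dex, and CBX3 mRNA in siHP1γ cells at 3.89% and 6.0%. PRMT5 mRNA was also lower in siHP1γ cells, by 0.25 with Eth and 0.35 with Dex on the log2 scale (adjusted p = 0.011 and 0.0012), and the GR gene NR3C1 was 0.31 higher in siPRMT5 than in siNS cells with Dex (adjusted p = 0.0062). The line's own markers VIM, CD44 and AXL were high in every condition, and AXL had a mean of 221 CPM in siPRMT5 Eth cells against 963 in siNS Eth cells. ESR1, PGR, CDH1 and the leukocyte genes PTPRC and CD3E were at or near 0 in all conditions, whereas ERBB2 and EPCAM were detected at means of 25.8 to 33.9 and 9.06 to 12.6 CPM and the endothelial marker PECAM1 at 1.29 to 6.83 CPM. Of all replicate pairs, siHP1γ Dex replicates 1 and 3 differed most, so results on siHP1γ Dex cells are also given without replicate 1 where that changes a call.

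Of the 51 members, 45 had enough counts to be tested. IRF7 and IFI27 had no count in any of the 18 libraries, which allows a pooled level of up to 0.0163 CPM (counting error only) if their reads could be counted. The annotation used in counting is not given in the sources used here, so a gene that was not expressed and one that was not countable cannot be told apart. TREX1, an exonuclease gene on the pathway lists, was also at 0 in all libraries. MX2, RSAD2, BST2 and CMPK2 had at most 6, 5, 5 and 2 counts in a library. OAS1 passed the filter only through its counts in siPRMT5 cells, so it had to differ between conditions. The members as a group took 0.263% to 0.266% of the counted reads in siNS Eth libraries, 0.327% to 0.336% in siPRMT5 Eth and 0.240% to 0.243% in siHP1γ Eth. With Dex these shares were 0.242% to 0.254% in siNS, 0.288% to 0.300% in siPRMT5 and 0.228% to 0.236% in siHP1γ libraries. The 3 libraries of each depletion lay wholly above (siPRMT5) or below (siHP1γ) those of siNS under the same treatment. Such a share is a sum in which the members with most counts weigh most. IFIT1, IFIT2 and IFIT3 had means of 221, 288 and 360 CPM in siNS Eth and 113, 165 and 227 CPM in siHP1γ Eth. Under either treatment their fall exceeded that of the share, so the other members together did not take a smaller share in siHP1γ libraries. In bulk RNA, a change in every cell and a change in a few cells cannot be told apart.

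**Figure D1:**
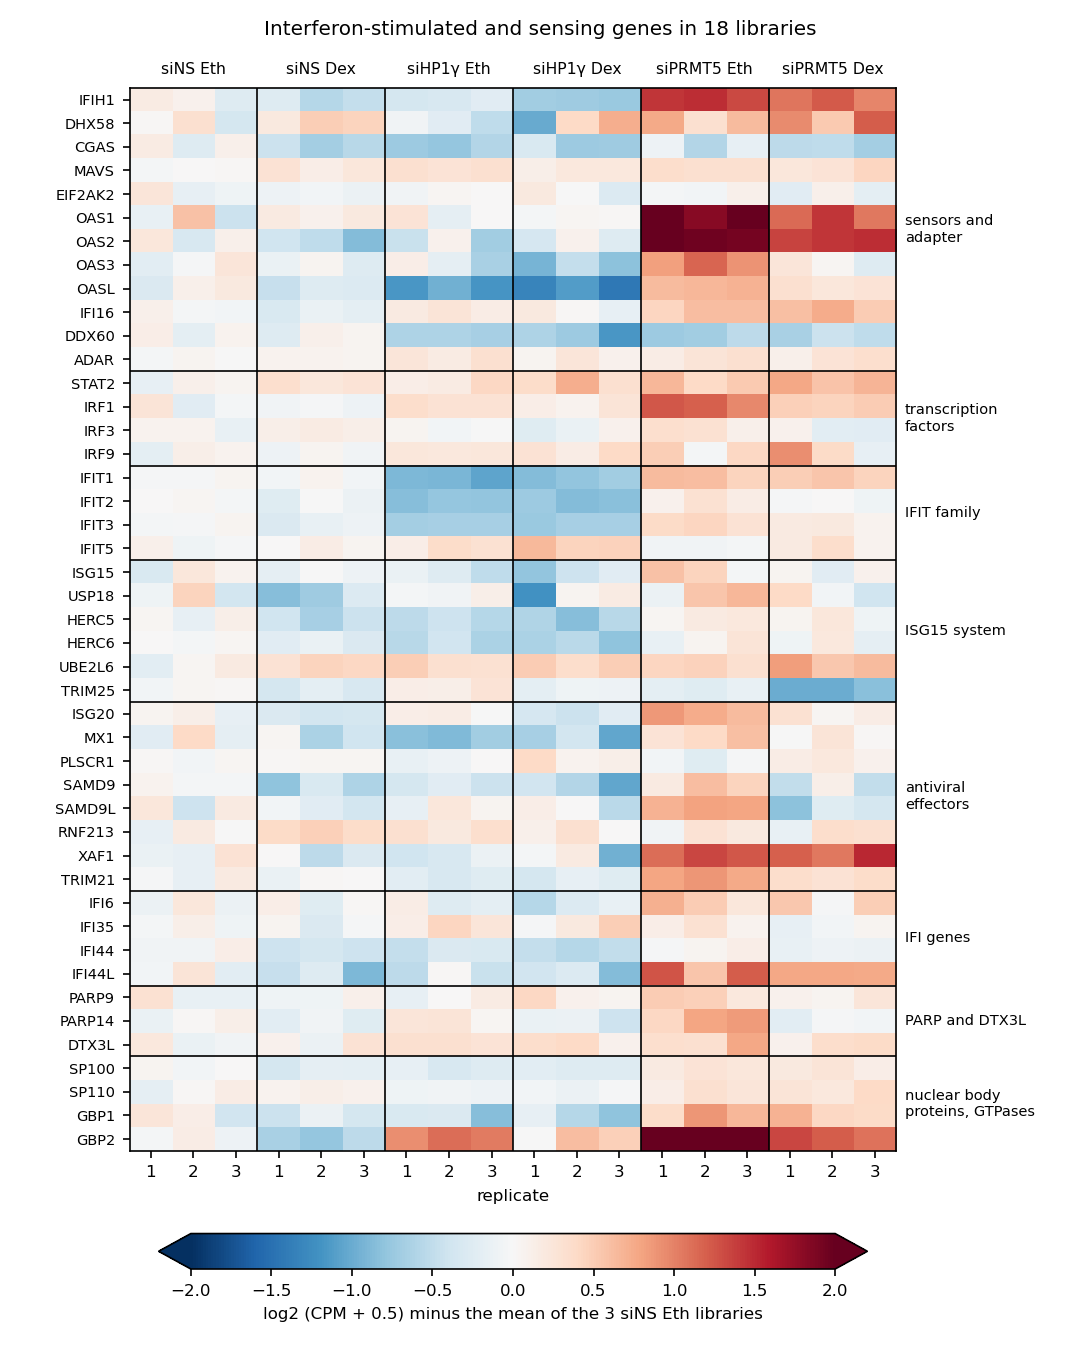
Level of each of the 45 tested members (rows, grouped by role) in each of the 18 libraries (columns, 3 replicates per condition), as the difference in log2 (CPM + 0.5) from the mean of the 3 siNS Eth libraries. Red is higher and blue lower, the colours stop at 2 units, and the siPRMT5 columns are mainly red while IFIT1, IFIT2, IFIT3 and OASL are blue in all 6 siHP1γ libraries.

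PRMT5 depletion without Dex was compared with siNS Eth to ask what the loss of this enzyme did to the genes in unstimulated cells. At an adjusted p-value under 0.05, 27 members rose and 2 fell. Over all 15298 genes tested, 42.1% passed the same threshold, 20.6% upwards and 21.6% downwards, so the members stood apart by their direction more than by how often they were called. Their median log2 fold change was 0.42, beside 0.00048 over all genes tested. The largest changes were in OAS1, GBP2, OAS2, IFIH1 and XAF1. Of the 45 members tested, 14 rose by at least 1.5-fold, beside 7.6% of all genes. In both directions 15 members reached that fold, beside 17.9% of all genes. Without OAS1, which the filter kept for its siPRMT5 counts, 26 of 44 members rose, 13 of them by at least 1.5-fold, and the median was 0.42. Of the 29 calls, 7 were lost when some single library was left out. These were IFIT2, TRIM25, SAMD9, IFI6, PARP9, SP100 and GBP1.

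Among the sensors, 8 of 12 rose (7 of 11 without OAS1) and 1 fell. IFIH1, which senses long double-stranded RNA, was at 17.2, 16.4 and 12.8 CPM in the siNS Eth libraries and at 42.4, 43.4 and 39 CPM in siPRMT5 Eth. The siPRMT5 libraries were all above those of siNS, with log2 fold change 1.43 ± 0.11 SE (adjusted p = 6.0e-11). OAS2 was at 2.32, 1.43 and 2.07 CPM in siNS Eth and 9.23, 8.81 and 8.6 CPM in siPRMT5 Eth, again without overlap, and its log2 fold change was 2.19 (adjusted p = 4.1e-09).

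IFIH1 (chr2:162267074-162318684, minus strand, GENCODE 44 on GRCh38) has 3 matches to the ISRE, an element that interferon-activated factors bind, within 159 bases before its start (RefSeq promoter). The span around these matches touches an annotated exon of GCA. The match nearest to the start lies in chr2:162318686-162318715, shown on the minus strand with the match in capitals.
IFIH1: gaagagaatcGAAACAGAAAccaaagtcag
OAS3 and OAS2 stand side by side at chr12:112938051-112976460 and chr12:112978395-113011723, both on the plus strand. No promoter was listed for OAS2. The OAS3 stretch, at chr12:112938452-112938473, holds the second of its 2 matches. It lies before the RefSeq start but inside the GENCODE span of OAS3 given above. The span around the 2 matches touches an annotated exon of OAS3.
OAS3: agccgggcggGAAAACGAAAcc

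OAS1 was close to undetected outside siPRMT5 cells. It had 1, 5 and 0 counts in the siNS Eth libraries and 24, 16 and 24 in siPRMT5 Eth, that is 0.11, 0.51 and 0 CPM against 2.58, 1.88 and 2.4 CPM. The fitted log2 fold change was 3.38, with a 95% interval of 2.42 to 4.33. It was 5.13 without siNS Eth replicate 2 (the library with 5 counts) and 2.81 without siNS Eth replicate 3 (the library with none). OAS3, the third of these 2′-5′ oligoadenylate synthetases, was at 1.99, 2.34 and 2.9 CPM in siNS Eth and 4.61, 5.99 and 4.9 CPM in siPRMT5 Eth, without overlap. Their inactive relative OASL rose as well (log2 fold change 0.66).

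The remaining sensors gave smaller or no changes. MAVS, the adapter downstream of IFIH1, was at 127, 130.1 and 133 CPM in siNS Eth and 167, 163 and 162 CPM in siPRMT5 Eth (log2 fold change 0.33 ± 0.07 SE, adjusted p = 0.00021). ADAR, which edits adenosines in double-stranded RNA, and the DNA-binding protein IFI16 rose by 0.24 and 0.56 on the log2 scale. EIF2AK2 encodes PKR, the kinase that stops translation on binding double-stranded RNA. It was at 99.1, 74.2 and 78.8 CPM in siNS Eth and 81.1, 80.5 and 89.7 CPM in siPRMT5 Eth, and its difference had a 95% interval of -0.23 to 0.22 (adjusted p = 0.99). The helicase DDX60 was the sensor that fell, from 23.6, 18.8 and 22.7 CPM to 12.9, 13.1 and 14.9 CPM (log2 fold change -0.66 ± 0.13 SE, adjusted p = 0.00022). For CGAS, 77.8, 58.3 and 74.6 CPM in siNS Eth overlapped 65.3, 46.1 and 62.4 CPM in siPRMT5 Eth (adjusted p = 0.077).

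Of the transcription factors, IRF1 and STAT2 rose. IRF1, which activates many of these genes without interferon, went from 13.1, 9.27 and 10.7 CPM in siNS Eth to 26.6, 25.6 and 21.8 CPM in siPRMT5 Eth (log2 fold change 1.16 ± 0.12 SE, adjusted p = 9.4e-09). STAT2, a subunit of the factor ISGF3 that binds the ISRE, was at 13.9, 16.8 and 16.2 CPM and 25.1, 20.8 and 22.7 CPM (log2 fold change 0.55 ± 0.12 SE, adjusted p = 0.00069). In both genes the siPRMT5 libraries lay above all siNS libraries. IRF3, the factor that sensors activate first, was at 35, 35.3 and 30.2 CPM against 42.2, 41.2 and 35.7 CPM and did not pass the threshold although the groups did not overlap (adjusted p = 0.054). IRF9, the ISGF3 subunit that contacts DNA, was low at 1.21, 1.63 and 1.55 CPM in siNS Eth and 2.25, 1.41 and 2.1 CPM in siPRMT5 Eth (adjusted p = 0.32). In the annotation, 22.9% of the exon bases of IRF1, 19.3% of those of IRF3 and 27.2% of those of IRF9 overlap other genes. The strand setting of the counting is not given in the sources used here, so reads of these neighbours cannot be told apart from theirs.

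Of the effector genes, 5 of 8 rose and none fell, as did 3 of the 4 nuclear body proteins and GTPases and 2 of the 4 IFI genes. GBP2, a guanylate-binding GTPase, was at 5.74, 6.62 and 5.49 CPM in siNS Eth and 27.4, 29.9 and 30.3 CPM in siPRMT5 Eth (log2 fold change 2.29 ± 0.14 SE, adjusted p = 9.9e-13), and 8.6% of its exon bases overlap GBP7. XAF1, a gene linked to interferon-induced apoptosis, was at 1.88, 1.83 and 2.69 CPM and 5.15, 6.1 and 5.7 CPM (log2 fold change 1.40 ± 0.25 SE, adjusted p = 6.1e-05), and 38.3% of its exon bases overlap the antisense gene PRAL. Both genes were higher in every siPRMT5 Eth library than in any siNS Eth library. TRIM21, the cytosolic antibody receptor, rose by 0.81 and IFI44L by 1.29 on the log2 scale. All 3 of PARP9, PARP14 and DTX3L rose, by 0.41, 0.70 and 0.49, and the call of PARP9 was lost without siNS Eth replicate 2 or 3 or siPRMT5 Eth replicate 1 or 2 (adjusted p of up to 0.127). PARP9 and DTX3L share 139 exon bases. In the ISG15 system, which attaches the ubiquitin-like protein ISG15 to others, the conjugating enzyme UBE2L6 rose by 0.40 and the ligase TRIM25 fell by 0.19. The TRIM25 call was lost with no filter on low counts and without siNS Eth replicate 2 or 3 or siPRMT5 Eth replicate 1 or 2 (adjusted p of up to 0.106). ISG15 itself did not pass the threshold (adjusted p = 0.066).

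**Figure D2:**
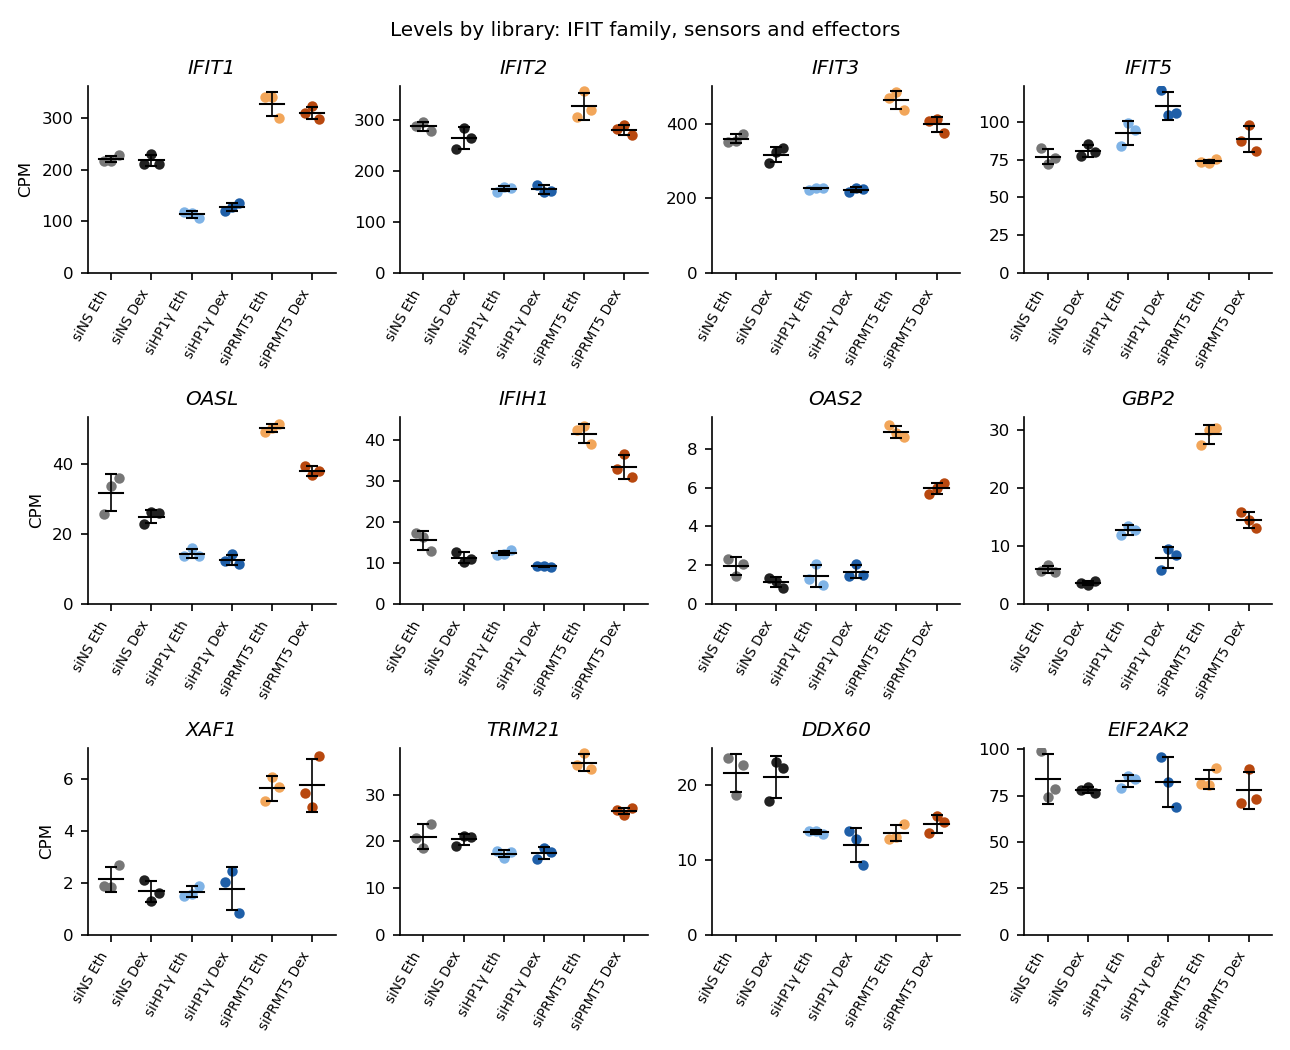
Level in CPM of 12 members in each library, with 1 panel per gene and the 6 conditions along the horizontal axis. Points are the 3 replicates, the long bar is their mean and the whiskers are 1 SD, and each vertical axis starts at 0 on its own scale, so that IFIT1, IFIT2 and IFIT3 show the low siHP1γ and IFIH1, OAS2, GBP2 and XAF1 the high siPRMT5 libraries.

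HP1γ depletion without Dex called fewer members and mainly in the other direction. At an adjusted p-value under 0.05, 6 members rose and 13 fell, that is 42.2% of those tested beside 31.8% of all genes (16.5% upwards and 15.2% downwards). The median log2 fold change was -0.11 for the members and 0.013 for all genes. When libraries were scaled by their size alone, in place of TMM, the split was 10 higher and 11 lower. Of the decreases, 4 were among the 12 sensors, 3 among the 4 IFIT genes and 2 among the 6 genes of the ISG15 system. At least a 1.5-fold decrease was found for 7 of the 45 members tested, beside 4.54% of all genes. In either direction 8 members reached that fold, beside 9.85% of all genes.

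The IFIT genes encode proteins with tetratricopeptide repeats that bind viral RNA, and 3 of the 4 fell. IFIT1, which binds the 5′ end of foreign RNA, was at 218, 216 and 228 CPM in siNS Eth, 118, 116 and 106 CPM in siHP1γ Eth and 341, 340.0 and 301 CPM in siPRMT5 Eth. These 3 groups did not overlap: siHP1γ cells were at 0.514 of the siNS level (log2 fold change -0.96 ± 0.07 SE, adjusted p = 1.7e-10) and siPRMT5 cells above it (log2 fold change 0.57 ± 0.07 SE, adjusted p = 2.5e-07). IFIT3 moved in the same directions, with 352, 355 and 374 CPM in siNS Eth, 224, 228 and 228 CPM in siHP1γ Eth and 471, 485 and 439 CPM in siPRMT5 Eth, again without overlap. IFIT2 was at 289, 297 and 279 CPM, 159, 169 and 166 CPM and 306, 357 and 319 CPM in the same order, also without overlap. Its log2 fold change in siHP1γ cells was -0.81 (adjusted p = 3.7e-09), and its rise in siPRMT5 cells was small (0.18, adjusted p = 0.036) and was lost under 6 of the 25 alternatives, among them leaving out siNS Eth replicate 1, siNS Eth replicate 3 or siPRMT5 Eth replicate 2.

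IFIT5 was the exception in the family. It was at 82.7, 72.5 and 75.9 CPM in siNS Eth, 84, 99.4 and 94.8 CPM in siHP1γ Eth and 73.3, 73.1 and 75.2 CPM in siPRMT5 Eth, with all siHP1γ libraries above those of siNS. It rose with HP1γ depletion (log2 fold change 0.27 ± 0.08 SE, adjusted p = 0.016) and not detectably with PRMT5 depletion (adjusted p = 0.62). Without siNS Eth replicate 2 or 3 or siHP1γ Eth replicate 2 or 3, the rise missed the threshold, with adjusted p-values of up to 0.0944. The IFIT genes are neighbours on the plus strand of chromosome 10, IFIT1 at chr10:89392546-89406487, IFIT2 at chr10:89283694-89309271, IFIT3 at chr10:89327307-89377473 and IFIT5 at chr10:89414568-89421605. Reads shared between these related genes could be split between them in counting. LIPA overlaps 1.86% of the exon bases of IFIT3 and, with another gene, 13.6% of those of IFIT2, but none of those of IFIT1 or IFIT5.

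Promoter stretches of the 3 IFIT genes for which a promoter was listed (RefSeq, GRCh38.p14, plus strand) show what the family shares. Capitals mark matches to the ISRE, searched on both strands as GAAA, any 2 bases and GAAA again. In these 3 genes the matches are on the minus strand and so read as TTTC, 2 bases and TTTC. The IFIT1 stretch is at chr10:89392495-89392541, with its matches 116 to 94 bases before the transcription start.
IFIT1: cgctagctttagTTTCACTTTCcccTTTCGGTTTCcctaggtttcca
The IFIT3 stretch is at chr10:89327829-89327896, with matches 156 to 113 bases before the start of 1 of its transcripts.
IFIT3: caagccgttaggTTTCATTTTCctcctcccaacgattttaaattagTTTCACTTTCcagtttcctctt
For IFIT5 the stretch is at chr10:89414539-89414567. It ends at the last base before the start, a further match of this promoter begins 45 bases before the start, and another reaches past it. The span around the IFIT5 matches before the start touches an annotated exon of LIPA.
IFIT5: ttacgtttagTTTCGATTTCttaagtttc
The IFIT gene that rose after HP1γ depletion holds the same pattern as IFIT1 and IFIT3, which fell. No promoter was listed for IFIT2.

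The largest decrease was in OASL, an OAS-like protein that binds RNA but makes no oligonucleotide. It was at 25.7, 33.5 and 35.8 CPM in siNS Eth and 13.7, 15.8 and 13.6 CPM in siHP1γ Eth, without overlap (log2 fold change -1.14 ± 0.11 SE, adjusted p = 3.3e-08). MX1, a GTPase that blocks viral replication, was at 2.21, 3.67 and 2.28 CPM and 1.27, 1.22 and 1.44 CPM (log2 fold change -1.05 ± 0.29 SE, adjusted p = 0.0069), and its call was lost without siNS Eth replicate 2 (adjusted p = 0.0701). CGAS went from 77.8, 58.3 and 74.6 CPM in siNS Eth to 42, 40.8 and 46.5 CPM in siHP1γ Eth (log2 fold change -0.70 ± 0.13 SE, adjusted p = 0.00011), with all siHP1γ libraries below those of siNS.

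DDX60, HERC5, HERC6, IFI44 and SP100 also fell, by 0.65, 0.51, 0.54, 0.36 and 0.25 on the log2 scale. HERC5 is the main ligase of ISG15 in human cells. IFIH1, at 12, 12.2 and 13.1 CPM in siHP1γ Eth, overlapped the siNS Eth libraries. Its decrease of 0.32 passed at adjusted p = 0.045 and was lost under 8 of 25 alternatives, DESeq2 and each siHP1γ Eth library left out among them. SP100 was lost without siHP1γ Eth replicate 2 (adjusted p = 0.0506). TRIM21 was as near the threshold as IFIH1 (adjusted p = 0.041, lost under 8).

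Of the 6 members that rose with HP1γ depletion, GBP2 had the largest change, to 11.8, 13.5 and 12.7 CPM in siHP1γ Eth from 5.74, 6.62 and 5.49 CPM in siNS Eth (log2 fold change 1.09 ± 0.15 SE, adjusted p = 4.5e-06). MAVS, at 163, 158 and 161 CPM, was above all siNS Eth libraries (log2 fold change 0.30 ± 0.07 SE, adjusted p = 0.0009). UBE2L6 was at 16.2, 19.4 and 21.5 CPM in siNS Eth and 26.8, 23.7 and 23.5 CPM in siHP1γ Eth (adjusted p = 0.011). ADAR went from 249, 265 and 255 CPM to 303, 288 and 319 CPM (adjusted p = 0.0098). These 2 calls were lost when siNS Eth replicate 1 was left out, among others. TRIM25, at 150.1, 161 and 159 CPM against 172, 171 and 190.0 CPM, was near the threshold (adjusted p = 0.046) and was called under only 6 of 25 alternatives. EIF2AK2 again gave no detectable difference, with a 95% interval of -0.24 to 0.20 on the log2 scale, and none of the 4 transcription factors passed.

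**Figure D3:**
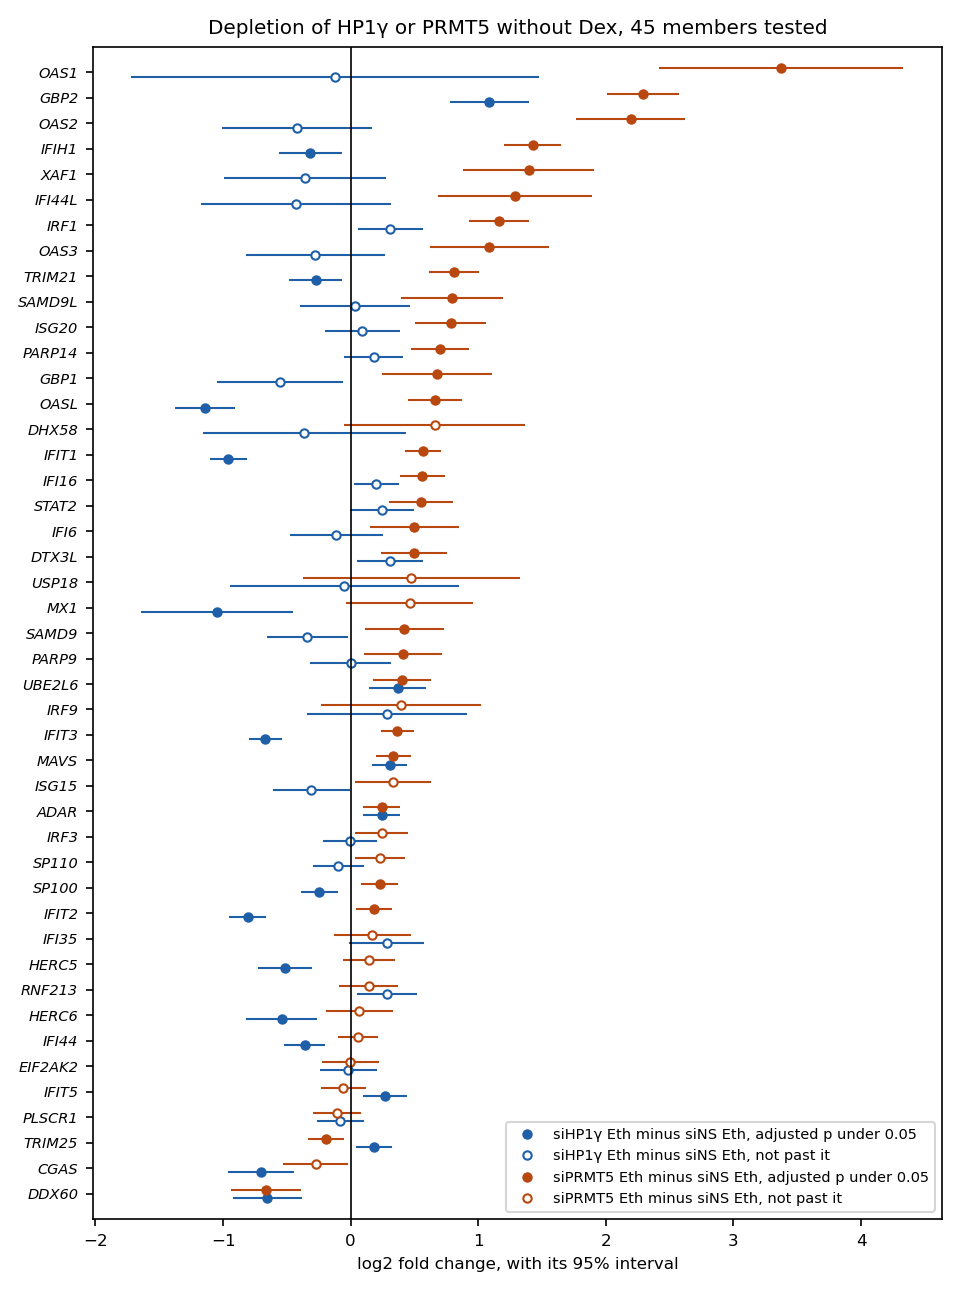
Log2 fold change of each of the 45 tested members after HP1γ depletion (blue) and PRMT5 depletion (orange) without Dex, each against the 3 siNS Eth libraries, with 95% intervals. Filled points passed an adjusted p-value of 0.05, and members are ordered by the PRMT5 value, from DDX60 at the bottom to OAS1 at the top.

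Both depletions share the siNS Eth libraries, so their values are set side by side and the difference was tested directly between siPRMT5 Eth and siHP1γ Eth. Here 32 members were higher in siPRMT5 cells and 2 lower, 75.6% of those tested beside 48.4% of all genes (23.4% higher and 25% lower). The median difference of the members was 0.61 on the log2 scale, against -0.0010 over all genes. Without OAS1, 31 were higher, and the calls of DHX58, STAT2, IRF3 and PARP9 were lost when some single library was left out. The 7 members that fell after HP1γ depletion and rose after PRMT5 depletion were IFIH1, IFIT1, IFIT2, IFIT3, OASL, SP100 and TRIM21. Picked for opposite calls against the shared siNS Eth libraries, they had to differ in this direct test, so their passing adds no support. The share of all genes with this opposite pattern was not computed. OASL and IFIT1 differed by 1.80 and 1.53, IFIH1 by 1.74 (adjusted p = 1.1e-12, 5.4e-15 and 1.4e-12). IFIT5 and TRIM25 were the 2 that were lower in siPRMT5 than in siHP1γ cells, by 0.33 and 0.37 (adjusted p = 0.0023 and 7.4e-05).

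A few members moved the same way after either depletion. GBP2 rose after both, and the siPRMT5 Eth libraries exceeded the siHP1γ Eth libraries by 1.20 (adjusted p = 8.8e-09). DDX60 fell after both, to 13.9, 13.9 and 13.5 CPM in siHP1γ Eth, and the difference between the depletions had a 95% interval of -0.30 to 0.27. UBE2L6, MAVS and ADAR rose after both by 0.24 to 0.40.

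With Dex present, the same comparisons were made against siNS Dex. PRMT5 depletion then raised 19 members and lowered 2 (46.7% of those tested, beside 42.4% of all genes, of which 20.6% were higher and 21.9% lower), with a median of 0.32 beside 0.0021 over all genes. Without OAS1 it raised 18, and leaving out some single library lost 1 of the 21 calls (UBE2L6). HP1γ depletion raised 3 and lowered 7, or 22.2% beside 24% of all genes (11.7% higher and 12.3% lower), a share below that of all genes. At a fold of at least 1.5 there were 10 members after PRMT5 depletion (16.9% of all genes) and 6 after HP1γ depletion (7.35%). For HP1γ, scaling by library size alone gave 6 higher and 6 lower. Without siHP1γ Dex replicate 1 the count was 9, OAS3 and IFI16 were no longer called and IFI35 was added.

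OAS2 was at 1.32, 1.2 and 0.816 CPM in siNS Dex and 5.67, 6.0 and 6.22 CPM in siPRMT5 Dex (log2 fold change 2.41 ± 0.24 SE, adjusted p = 8.5e-09). OAS1 was at 0.265, 0.218 and 0.272 CPM and 0.977, 1.32 and 0.905 CPM (log2 fold change 2.05 ± 0.50 SE), and GBP2 at 3.62, 3.27 and 3.99 CPM and 15.7, 14.5 and 13.1 CPM (log2 fold change 1.99 ± 0.16 SE). IFI44L, a gene of unknown biochemical function next to IFI44, was at 0.795, 0.981 and 0.453 CPM against 2.54, 2.55 and 2.49 CPM (log2 fold change 1.77 ± 0.33 SE). XAF1 was at 2.12, 1.31 and 1.63 CPM against 5.47, 4.93 and 6.9 CPM (log2 fold change 1.73 ± 0.25 SE). In these 5 genes, the largest calls, no siNS Dex library reached the lowest siPRMT5 Dex library. OAS1 was kept by the filter for its siPRMT5 counts, so its difference is no separate result. The 2 members that fell were TRIM25, at 123, 137 and 125 CPM in siNS Dex and 78.1, 78.7 and 87.5 CPM in siPRMT5 Dex (log2 fold change -0.66 ± 0.07 SE), and DDX60, at 17.9, 23.1 and 22.4 CPM and 13.6, 15.9 and 15.1 CPM (log2 fold change -0.50 ± 0.13 SE). In both the siPRMT5 libraries lay below those of siNS. IFIH1 was at 12.7, 10.1 and 10.9 CPM and 32.9, 36.7 and 30.9 CPM, a rise of 1.57 (adjusted p = 1.8e-11).

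With HP1γ depleted and Dex present, OASL was at 12.3, 14.2 and 11.4 CPM against 22.7, 26.1 and 25.9 CPM in siNS Dex (log2 fold change -0.98 ± 0.12 SE, adjusted p = 6.8e-07). IFIT1 was at 120.4, 128 and 136 CPM against 212, 231 and 212 CPM (log2 fold change -0.77 ± 0.07 SE), and IFIT2 at 173, 158 and 161 CPM against 243, 286 and 265 CPM (log2 fold change -0.69 ± 0.07 SE). None of these siHP1γ libraries reached the siNS range. DDX60 was at 13.9, 12.8 and 9.4 CPM against 17.9, 23.1 and 22.4 CPM, also without overlap (log2 fold change -0.80 ± 0.13 SE), and OAS3 at 1.02, 1.56 and 1.13 CPM against 2.12, 2.51 and 1.9 CPM (adjusted p = 0.041, lost under 9 of 25 alternatives). On the upward side, GBP2 was at 5.9, 9.39 and 8.46 CPM (log2 fold change 1.10 ± 0.17 SE) and IFIT5 at 121, 105 and 106 CPM against 77.4, 85.2 and 80.0 CPM (log2 fold change 0.45 ± 0.08 SE, adjusted p = 0.0002). IFI16, at 152, 135 and 117 CPM against 107, 120.2 and 116 CPM, passed narrowly (adjusted p = 0.046) and was lost under 13 alternatives. CGAS did not differ detectably here (56.1, 41.8 and 42.4 CPM against 51.5, 43.5 and 47.2 CPM, adjusted p = 0.95).

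The effects with and without Dex share no libraries. Across the 45 members, the log2 fold changes of PRMT5 depletion with and without Dex had a Pearson correlation of 0.84, and those of HP1γ depletion of 0.74, beside 0.75 and 0.66 across all 15298 genes. These describe the genes, which are not independent replicates. After PRMT5 depletion, 19 members (42.2%) were called under both treatments, beside 28.5% of all genes. Another 10 were called only without Dex (22.2%, beside 13.6%) and 2 only with Dex (4.44%, beside 13.9%). After HP1γ depletion, 8 members (17.8%) were called under both, beside 15.1% of all genes. Here 11 were called only without Dex (24.4%, beside 16.7%) and 2 only with Dex (4.44%, beside 8.92%). All of the 19 and the 8 had the same direction under both treatments, as did 98.6% and 99.7% of all genes called under both. Under siPRMT5 against siHP1γ with Dex, 26 members were higher and 2 lower, 62.2% beside 49.9% of all genes (24.4% higher and 25.5% lower), with a median of 0.42 against -0.0020. Without OAS1, 25 were higher, and the calls of DHX58, IRF1, ISG15 and SAMD9 were lost when some single library was left out.

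**Figure D4:**
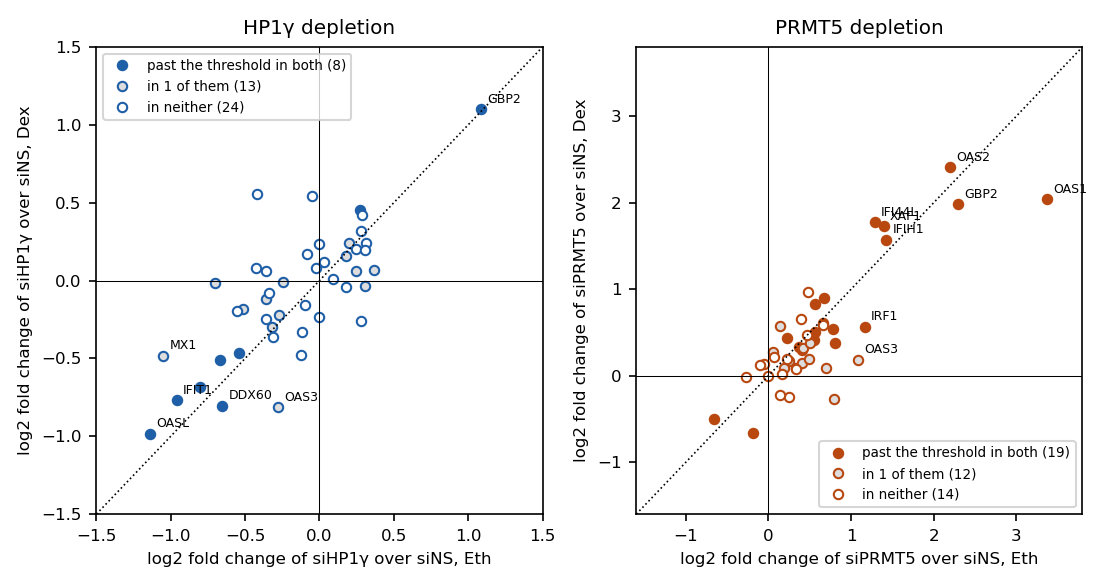
Log2 fold change of each tested member after depletion without Dex (horizontal axis) and with Dex (vertical axis), for HP1γ (left) and PRMT5 (right), each against siNS under the same treatment. Colours show whether the adjusted p-value was under 0.05 in both (8 and 19 members), in 1 or in neither, the dotted line marks equal values, and the PRMT5 points lie mainly in the upper right.

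Some members were not called. In none of the 4 depletion comparisons did DHX58, EIF2AK2, IRF3, IRF9, ISG15, USP18, PLSCR1, RNF213, IFI35 or SP110 pass, which is 10 of the 45. The share of all genes called in none of the 4 was not computed, so this count is not read as few or many. The direct test between the depletions without Dex called DHX58, IRF3, ISG15 and SP110 among them. The 95% intervals of EIF2AK2 lay between -0.24 and 0.30 on the log2 scale in all 4 depletion comparisons. USP18 and IRF9 had mean levels under 3 CPM in every condition. ISG15 and USP18, the modifier and the protease that removes it, are textbook interferon targets. ISG15 was at 80.5, 116 and 104 CPM in siNS Eth, 90.8, 83.1 and 69.4 CPM in siHP1γ Eth and 149, 135 and 96.1 CPM in siPRMT5 Eth, with overlap between siNS and each depletion.

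For the Dex response, the limits were 0.01 for the adjusted p-value and 1.5 for the fold. In siNS cells, 0 of 45 members passed by edgeR and 0 by DESeq2, beside 2.71% of all genes, and 18 members had an unadjusted p under 0.05 (beside 22.4% of all genes). Leaving out 1 library called 1 member in 5 cases: CGAS without siNS Eth replicate 2 or siNS Dex replicate 1, SAMD9 without siNS Dex replicate 2, and GBP2 without siHP1γ Dex replicate 1 or 2. At a looser limit of 0.05 and any fold, 12 members passed, 3 upwards and 9 downwards, beside 9.16% of all genes (4.88% and 4.28%). RNF213, UBE2L6 and MAVS rose, and GBP2, SAMD9, CGAS, HERC5, IFIH1, IFI44, OASL, TRIM25 and SP100 fell. CGAS was at 51.5, 43.5 and 47.2 CPM with Dex and 77.8, 58.3 and 74.6 CPM with Eth in siNS cells (log2 fold change -0.56 ± 0.12 SE, adjusted p = 0.003). In siHP1γ cells, 1 member was called beside 1.67% of all genes (0.66% downwards). GBP2 fell by 0.69 (adjusted p = 0.0019), and this was lost without siHP1γ Dex replicate 1 or siHP1γ Eth replicate 2 or 3. At the looser limit 4 members passed, beside 5.55% of all genes.

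In siPRMT5 cells, Dex lowered 8 members and raised none past the threshold, beside 5.44% of all genes (2.75% downwards). At the looser limit 18 passed, beside 16% of all genes. The 8 were SAMD9L, OAS3, GBP2, PARP14, TRIM25, IRF1, SAMD9 and ISG20. SAMD9 was lost by DESeq2 and without siPRMT5 Eth replicate 2 or siPRMT5 Dex replicate 1 or 3, and ISG20 without siPRMT5 Eth replicate 1 or siPRMT5 Dex replicate 2. Members had a median of -0.22 in siPRMT5 cells, -0.13 in siNS cells and -0.099 in siHP1γ cells, against medians of -0.00093, 0.0036 and -0.0017 over all genes. IFIT1, in contrast, gave 95% intervals of -0.22 to 0.07 in siPRMT5 and -0.16 to 0.12 in siNS cells. Its relatives differed from it in siPRMT5 cells, where IFIT2 and IFIT3 were lower and IFIT5 higher with Dex at the looser limit. Their means with Eth and Dex were 328 and 281, 465 and 399, and 73.9 and 88.9 CPM. No IFIT gene passed that limit in siNS cells.

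SAMD9L and its neighbour SAMD9 restrict poxviruses and slow growth. SAMD9L was at 8.48, 9.16 and 9.1 CPM in siPRMT5 Eth and 2.64, 4.19 and 3.85 CPM in siPRMT5 Dex (log2 fold change -1.31 ± 0.20 SE, adjusted p = 2.7e-05), and at 5.96, 3.67 and 5.8 CPM and 4.86, 4.25 and 3.81 CPM in siNS cells. The siPRMT5 Dex libraries lay below all siPRMT5 Eth libraries, and the siNS ranges overlapped. PARP14, a mono-ADP-ribosyltransferase, was at 38.1, 49.7 and 51.7 CPM and 24.7, 27.9 and 27.5 CPM in siPRMT5 cells (log2 fold change -0.80 ± 0.11 SE, adjusted p = 4.6e-06). In siNS cells it was at 26.1, 28.9 and 30.9 CPM and 24.6, 27.2 and 24 CPM (adjusted p = 0.37).

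TRIM25, the ubiquitin ligase that modifies RNA sensors, was at 137, 132 and 142 CPM in siPRMT5 Eth and 78.1, 78.7 and 87.5 CPM in siPRMT5 Dex (log2 fold change -0.75 ± 0.07 SE, adjusted p = 7.9e-09). It was at 150.1, 161 and 159 CPM and 123, 137 and 125 CPM in siNS and at 172, 171 and 190.0 CPM and 136, 148 and 145 CPM in siHP1γ cells. Dex libraries were below Eth libraries in all 3 kinds of cells. IRF1 was at 26.6, 25.6 and 21.8 CPM and 15.3, 15.1 and 15.7 CPM in siPRMT5 cells (log2 fold change -0.68 ± 0.11 SE, adjusted p = 4.2e-05) and at 13.1, 9.27 and 10.7 CPM and 10.3, 10.7 and 10.2 CPM in siNS cells. OAS3 was at 2.93, 2.47 and 1.92 CPM in siPRMT5 Dex (log2 fold change -1.06 ± 0.22 SE) and GBP2 at 15.7, 14.5 and 13.1 CPM (log2 fold change -1.01 ± 0.12 SE), all below the siPRMT5 Eth libraries.

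Whether the Dex response differed from that in siNS cells was tested as an interaction. It did for 4 members in siPRMT5 cells, all with a lower response (3.8% of all genes passed, 2.23% downwards). The responses differed for TRIM25 by -0.47, PARP14 by -0.61, SAMD9L by -1.06 and IRF1 by -0.60 on the log2 scale, with adjusted p-values of 0.0072, 0.027, 0.042 and 0.043. With 1 library left out, the count fell to 1 or 2 for 12 of the 18 libraries, all siNS Dex and all siHP1γ Eth libraries among them, and rose to 5 without siHP1γ Dex replicate 1 or 3. With the limit kept at an adjusted p-value of 0.05, TRIM25 passed under all 25 other settings, whereas PARP14, SAMD9L and IRF1 were lost under 6, 16 and 17 of them. With a fold of at least 1.5 required as well, 3 members passed, and TRIM25 was the one lost. Each of these 3 was raised by the depletion without Dex. With Dex their siPRMT5 levels differed from siNS by 0.08 (PARP14), -0.27 (SAMD9L) and 0.57 (IRF1) on the log2 scale, and IRF1 alone of the 3 was called. The interaction is made from these same siPRMT5 and siNS libraries. Members picked for a negative interaction lean towards this pattern, so it adds no support. PRMT5 mRNA itself was higher with Dex than with Eth in siPRMT5 cells, by 0.52 (adjusted p = 0.0063), and its part in these results was not tested. In siHP1γ cells no member passed the interaction test by edgeR, beside 0.399% of all genes. There 7 of 45 had an unadjusted p under 0.05, beside 17.2% of all genes, and DESeq2 called CGAS and MAVS, as did edgeR for CGAS without siNS Eth replicate 2 or siPRMT5 Eth replicate 2.

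**Figure D5:**
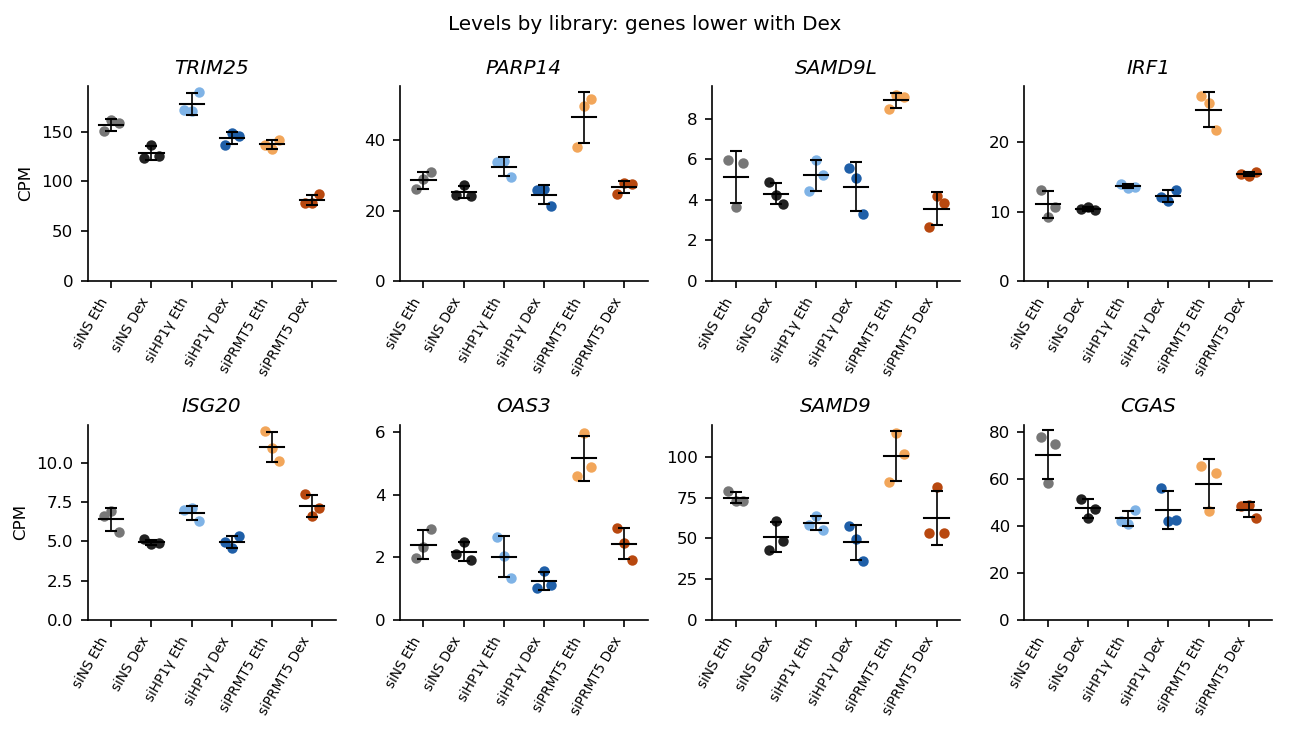
Level in CPM of the members TRIM25, PARP14, SAMD9L, IRF1, ISG20, OAS3, SAMD9 and CGAS in each library, by condition, with the mean (long bar) and SD (whiskers) of 3 replicates and axes that start at 0. The first 7 were called lower with Dex in siPRMT5 cells, where TRIM25 went from 132 to 142 CPM down to 78.1 to 87.5, and CGAS shows a decrease in siNS cells under the 1.5-fold limit.

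The promoters of 2 of these genes held 1 motif each in a stretch without annotated exons (RefSeq, GRCh38.p14). PARP14 has an ISRE at chr3:122680798-122680831, plus strand, 29 to 20 bases before the start.
PARP14: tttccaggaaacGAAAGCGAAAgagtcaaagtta
IRF1 has a GAS, searched as TTC, any 3 bases and GAA, at chr5:132490877-132490909, minus strand, 124 to 116 bases before the start.
IRF1: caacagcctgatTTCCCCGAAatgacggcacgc
Promoters of 300 bases were listed for 41 of the 51 members, 58 in all, and 29 of them (50%) held the ISRE pattern, beside 3.57% of all 35116 promoters in the table. For the GAS pattern the shares were 22.4% and 7.66%. Of 21 tested members with this ISRE pattern, 13 rose and 1 fell after PRMT5 depletion without Dex. Of 16 without it in their listed promoters, 10 rose and 1 fell, and of 8 with no listed promoter 4 rose and 0 fell. After HP1γ depletion without Dex, 1 rose and 8 fell of those with the pattern, and 4 rose and 2 fell of those without. Of those with no listed promoter, 1 rose and 3 fell. Over all genes tested, 20.6% rose and 21.6% fell after PRMT5 depletion without Dex, and 16.5% and 15.2% after HP1γ depletion. The pattern is strict: OAS1, IFI16 and TRIM25 were counted as without it, though their promoters hold GAAA repeats 1 base apart. A match to the pattern is not a bound site, and these counts were not tested.

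Other genes of the pathway were read from lists of ligands, receptors, signalling genes and inhibitors, and values after their names are log2 fold changes. Counts in these short lists are to be read beside the shares of all genes called, which were 20.6% upwards and 21.6% downwards after PRMT5 depletion without Dex and 20.6% and 21.9% with Dex. For HP1γ depletion they were 16.5% and 15.2% without and 11.7% and 12.3% with Dex. Whether the filter kept a gene of these lists for its counts under 1 siRNA alone was not checked. By their levels AIM2 (siPRMT5) and IFNLR1 (siHP1γ) could be such genes, and a call of either is no separate result. IFNLR1 had means of 0.73 CPM in siNS Eth, 2.21 in siHP1γ Eth and 0.57 in siPRMT5 Eth. None of the 9 interferon genes listed had enough counts to be tested: 8 had no count, and IFNL1 had 7, with 1 count each in siPRMT5 Eth replicates 2 and 3, 4 in siPRMT5 Dex replicate 1 and 1 in siPRMT5 Dex replicate 2. Of the 9 receptor and kinase genes, all tested, 5 rose and none fell after PRMT5 depletion without Dex, led by the kinase TYK2 (0.44) and the receptor subunits IFNAR1 (0.34) and IFNGR1 (0.34). With Dex, 4 rose, led by JAK2 (0.84) and IFNAR1 (0.71). After HP1γ depletion 3 rose and 1 fell without Dex, and none passed with Dex by edgeR.

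Among 10 signalling genes tested, 6 rose and 1 fell after PRMT5 depletion without Dex and 5 rose and 2 fell with Dex. The 10 include AIM2, with means of 0.66 CPM in siNS Eth, 0.28 in siHP1γ Eth and 1.51 in siPRMT5 Eth. The counts without it are not given. TLR3, an endosomal sensor of double-stranded RNA, rose by 1.86 without Dex. TRAF3, a ubiquitin ligase downstream of the sensors, fell by 0.79 and 1.15. After HP1γ depletion, 2 rose and 1 fell without Dex, and 2 rose and 2 fell with Dex. IRF2, which can repress IRF1 targets, fell under both treatments, by 0.50 and 0.39.

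Of 9 tested genes that restrain the pathway or remove nucleic acids, SOCS3, an inhibitor of JAK kinases, moved in opposite directions against the siNS libraries that both comparisons share. It fell by 0.64 and 0.78 after HP1γ depletion without and with Dex, and rose by 1.04 and 0.36 after PRMT5 depletion. In this list 3 rose and 1 fell after PRMT5 depletion without Dex, and 5 rose and 1 fell with Dex. RNASEH2C, a subunit of RNase H2, was the one that fell (by 0.54 and 0.56). HP1γ depletion raised 1 and lowered 3 without Dex, and lowered 1 with Dex. Among 15 tested interferon-stimulated genes outside the members, PRMT5 depletion raised 10 and lowered 1 without Dex and raised 9 and lowered 2 with Dex, with HELZ2, IFITM1 and IFITM2 the largest without Dex (1.21, 0.95 and 0.70). HP1γ depletion raised 3 and lowered 1 without Dex, and raised none and lowered 3 with Dex (IFITM2, IFITM3 and ZC3HAV1, by 0.66, 0.44 and 0.33).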

How the data were processed

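RNA-seq was done on MDA-MB-231 cells under 6 conditions with 3 replicates each. The counts were deposited by the authors as whole reads per gene and library, made from Lexogen libraries sequenced on a NextSeq instrument with Bowtie2 2.4.2 and HTSeq 0.9.1. Bowtie2 aligns reads without splicing, so a read that spans a junction may be lost. The strand setting and annotation used in counting are not given in the sources used here. The authors' own comparison table, made with DESeq2 2.11.40.7, holds fold changes and p-values and was not used.

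Counts were analysed with edgeR 4.0.16 in R 4.3.3 (limma 3.58.1). Genes passing filterByExpr over the 6 conditions (15298 of 60642) were normalized by TMM and fitted together with 1 mean per condition and quasi-likelihood tests (12 residual degrees of freedom). P-values were adjusted by Benjamini-Hochberg over all tested genes. All adjusted p-values are from this fit unless another tool is named. A Dex response was called at 0.01 with a fold of at least 1.5, other comparisons at 0.05. Standard errors were derived as the log2 fold change divided by the root of F. An exact permutation test of 3 against 3 libraries cannot go below p = 0.1 and was not used. Statements on overlap describe single genes, and the share of all genes without overlap was not computed. The scripts were tested on simulated data. The study calls the 3 replicates biological but does not say whether they were separate cultures. P-values measure the spread between these libraries.

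The members and lists were chosen with earlier results of these data known. Values per library are given for the 5 largest calls in each direction of each depletion comparison, the called members of the Dex comparisons and interactions (at most 5 in each direction), the tested transcription factors, and IFIH1, CGAS, EIF2AK2 and MAVS. IFIT3, ISG15 and other members named singly were chosen after their values were seen. Alternatives were DESeq2 1.42.0, RLE or library-size scaling, other filters and thresholds, the replicate number as a block, the compared libraries alone, and leaving out each library. Promoters were from RefSeq, GRCh38.p14. Exon overlaps were from GENCODE 44 on GRCh38. Figures were drawn with matplotlib 3.10.9.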

Additional observations from a re-analysis of the deposited data

Results flagged for a closer look

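The Dex response differed between siPRMT5 and siNS cells for 4 members by the interaction test in edgeR, as differences of log2 fold changes. The difference was -0.465 for TRIM25 (adjusted p = 0.0072), -0.6145 for PARP14 (adjusted p = 0.027), -1.064 for SAMD9L (adjusted p = 0.042) and -0.5956 for IRF1 (adjusted p = 0.043). For TRIM25 all 3 Dex libraries were below all 3 Eth libraries under each siRNA, and the decrease was larger in siPRMT5 cells. For SAMD9L and IRF1 the Dex and Eth libraries of siNS cells overlapped. SAMD9L was measured at 9.16 CPM or less in every library.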

How the results depend on the processing

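None of the 154 calls of a member in a comparison reversed its direction under the 25 alternatives that kept the thresholds. No scaling moved the median of all genes by over 0.1 on the log2 scale.

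Counts of called members moved by over 1.5 times in these cases. At the other threshold (no fold limit for Dex and a 1.5-fold limit elsewhere) the counts were 12 for Dex in siNS, 4 for Dex in siHP1γ and 18 for Dex in siPRMT5 cells. They were 8 and 6 for HP1γ depletion without and with Dex, and 15 and 10 for PRMT5 depletion. With the compared libraries alone, Dex in siHP1γ cells called 0 members. The HP1γ interaction called 2 members by DESeq2 (CGAS and MAVS), 2 with no filter on low counts (CGAS and RNF213), 1 with the replicate block (CGAS) and 1 with the compared libraries alone (CGAS). When each library was left out in turn, the count ran from 0 to 1 for Dex in siNS, 0 to 1 for Dex in siHP1γ, 0 to 1 for the HP1γ interaction and 1 to 5 for the PRMT5 interaction. The cause of these shifts was not tested.

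Libraries with the same replicate number did not deviate together (correlations of -0.131 to 0.172 over 27 checks, 4 of them over 0.1), and each correlated best with its own number in 11 of 27, so the numbers were not taken as pairs. With the replicate number as a block, PRMT5 depletion without Dex called 30 members and HP1γ depletion without Dex 21. Low counts limit OAS1, OAS2, OAS3, XAF1, IFI44L, MX1, IRF9 and USP18, which had means under 3 CPM in every siNS condition.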

Other observations

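Outside the members, the Dex response of some interferon-related genes was read after their values were seen. HELZ2, a coactivator that interferon induces, was at 26.3, 28.8 and 28.7 CPM in siNS Eth and 63.4, 59.8 and 72.6 CPM in siNS Dex libraries, a log2 fold change of 1.23. In siPRMT5 cells it was at 67.3, 63.9 and 63.3 CPM with Eth and 128, 118 and 140 CPM with Dex. Dex libraries were above Eth libraries in both kinds of cells. In siPRMT5 cells Dex also raised SOCS1, an inhibitor of JAK kinases, by 1.35 on the log2 scale, and lowered the ubiquitin ligase TRIM5 and the kinase IKBKE by 0.77 and 0.73.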
